A study of Homo sapiens with 36 samples.

Results

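The genes described here encode subunits of cytoplasmic dynein and of its partner dynactin, and they were read in PAR-CLIP cluster lists of the RNA-binding proteins SCAF4 and SCAF8. The 7 genes were DYNC1H1, DYNC1LI1, DYNC1LI2, DYNC1I2, DYNC2H1, DCTN1 and DCTN4. A cluster was counted for a gene when its midpoint lay on the gene's strand and within its GENCODE 44 body on GRCh38. By this rule 436 of the 278185 clusters in 18 lists belonged to the 7 genes. DYNC1H1 held 208 of them (47.7%). The genes were chosen by how many clusters they held in these lists and by their shared function, so the numbers of clusters and regions below are descriptions and were not tested against inputs or other genes.

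Cytoplasmic dynein 1 is the motor that carries cargo toward the minus ends of microtubules. Its heavy chain, encoded by DYNC1H1, holds the ATPase ring and the microtubule-binding stalk, while the intermediate and light intermediate chains link the motor to dynactin and to cargo adaptors. Dynactin is a separate complex that makes dynein processive, and its large subunit p150Glued is encoded by DCTN1. DYNC2H1 encodes the heavy chain of dynein 2, which drives retrograde transport inside cilia. SCAF4 and SCAF8 are nuclear proteins that bind the C-terminal domain of RNA polymerase II and RNA, and the study asked where they sit on nascent transcripts.

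PAR-CLIP marks such contacts by crosslinking proteins to RNA that has incorporated 4-thiouridine (4SU). All cells were HEK293 Flp-in T-Rex cells, a human embryonic kidney line. One stable line carried doxycycline-inducible FLAG-SCAF4, another FLAG-SCAF8, each beside the endogenous protein, and the parental line carried no FLAG-tagged protein. The sample labels give 100 ng/mL doxycycline for the SCAF lines and none for the parental line, while the methods state a different dose. All cells received 100 μM 4SU overnight and 500 μM for another 2 h, followed by 2000 J/m2 of UV light at 365 nm. FLAG IPs of the 3 lines are called SCAF4 IP, SCAF8 IP and Control IP, and an input was taken from each extract before the pull-out. Each of these 6 groups had 3 replicates, and reads of the soluble and chromatin fractions, sequenced as 36 libraries, were combined by the authors into 18 lists. The lists held 18287 to 54404 clusters in the 6 SCAF IPs, 1621 to 9638 in the Control IPs and 4567 to 12493 in the 9 inputs. They hold no reads, so sequencing depth was unknown and levels are given as clusters per 1000 clusters of a list. RNA levels of the genes were not analysed here.

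Clusters of the 6 SCAF IP lists that overlapped on a strand were merged, and a region was kept when at least 2 of the 6 lists contributed to it. The 7 genes held 92 such regions. For 5 of the genes, the region outside untranslated sequence with the most SCAF IP lists is printed to give the RNA behind the counts, on the transcribed strand of GRCh38. Capitals mark letters of 3 motif families searched on that strand only. These were CGG or CGA, pentamers of the form NCAGN with C or G at each N, and CTCC or CACC. Each region of DCTN4 touched untranslated sequence of an isoform, and none is printed.
DYNC1LI1, intron 2, chr3:32556333-32556449 (-), in 3 lists: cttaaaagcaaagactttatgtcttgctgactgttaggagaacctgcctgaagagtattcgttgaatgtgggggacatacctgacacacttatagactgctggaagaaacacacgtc
DYNC1LI2, exon 4, chr16:66742397-66742666 (-), in all 6 lists: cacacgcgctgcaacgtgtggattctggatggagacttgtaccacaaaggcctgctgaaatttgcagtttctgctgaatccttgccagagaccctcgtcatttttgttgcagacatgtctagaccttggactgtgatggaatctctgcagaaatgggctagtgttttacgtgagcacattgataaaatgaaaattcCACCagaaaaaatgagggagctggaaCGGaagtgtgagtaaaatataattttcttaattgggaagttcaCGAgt
DYNC1I2, exon 17, chr2:171745819-171745928 (+), in 3 lists: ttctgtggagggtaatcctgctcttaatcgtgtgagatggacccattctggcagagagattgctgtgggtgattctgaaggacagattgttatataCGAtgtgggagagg
DYNC2H1, exon 61, chr11:103234033-103234162 (+), in all 6 lists: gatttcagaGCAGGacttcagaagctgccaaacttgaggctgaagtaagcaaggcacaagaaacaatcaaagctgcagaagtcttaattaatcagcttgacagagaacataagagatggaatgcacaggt
DCTN1, exon 24, chr2:74365892-74366044 (-), in all 6 lists: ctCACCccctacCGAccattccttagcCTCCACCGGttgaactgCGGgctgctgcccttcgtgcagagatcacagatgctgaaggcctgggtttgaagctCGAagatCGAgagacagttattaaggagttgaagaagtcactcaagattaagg
The DCTN1 region held CGG or CGA 5 times and the DYNC2H1 and DYNC1LI1 regions not at all. The DCTN1 region also had clusters in 3 inputs and 2 Control IP lists, the DYNC2H1 region in 1 input, and the regions printed for DYNC1LI1, DYNC1LI2 and DYNC1I2 in none. Among the 92 regions, 71.7% held CGG or CGA in the 100 nt around the midpoint, compared with 67.1% of 36372 regions of other protein-coding genes and 56.7% of 13456 regions found in at least 2 of the 9 inputs. The CAG-centred pentamers were in 48.9% of the member regions, 43.4% of those of other genes and 35.8% of the input regions. CTCC or CACC was in 38.0%, 48.8% and 41.5%. Motif matches describe these windows only, and the families can overlap.

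By count, all 7 genes had clusters mainly in the SCAF IP lists. These were also the longest lists, so the counts alone do not set the genes apart. Of the 436 clusters, 394 were in the 6 SCAF IPs, 11 in the Control IPs and 31 in the 9 inputs. Per 1000 clusters of a list, the 7 genes together had 2.32, 2.28 and 2.56 in SCAF4 IP, 1.51, 1.64 and 1.71 in SCAF8 IP, and 0.93, 0.86 and 0 in Control IP. Inputs had 0.68, 0.20 and 0 for SCAF4, 0.66, 0.48 and 0.44 for SCAF8, and 0.48, 0 and 0.20 for the parental cells. Every SCAF IP list was above every input and Control IP list. The mean was 2.00 ± 0.44 (SD, n = 6) in SCAF IPs and 0.410 ± 0.267 (SD, n = 6) in their own inputs, a log2 ratio of 2.29.

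**Figure D1:**
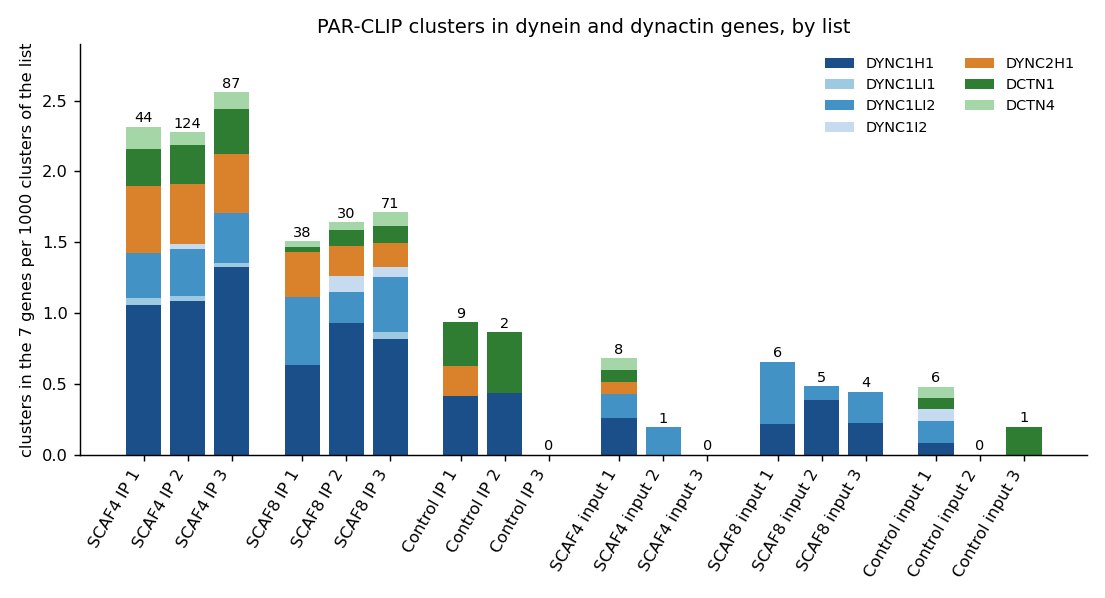
Clusters in the 7 genes per 1000 clusters of each list, stacked by gene, with the number of member clusters above each bar. The SCAF4 IP lists reached 2.28 to 2.56, the SCAF8 IP lists 1.51 to 1.71, and no other list passed 0.93.

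DYNC1H1, the motor subunit, held the most clusters of the 7 genes. Per kb of exon, DYNC1LI2 had more regions of any place, 3.01 beside 2.24 in DYNC1H1. These counts include regions that touched no exon, 4 of 13 in DYNC1LI2 and 1 of 45 in DYNC1H1. The order for exonic regions alone is not given here. DYNC1H1 clusters numbered 20, 59 and 45 in SCAF4 IP, 16, 17 and 34 in SCAF8 IP, and 4, 1 and 0 in Control IP. Inputs held 3, 0 and 0 for SCAF4, 2, 4 and 2 for SCAF8, and 1, 0 and 0 for the parental cells. The DYNC1H1 level was 0.97 ± 0.24 per 1000 (SD, n = 6) in SCAF IPs and 0.18 ± 0.15 (SD, n = 6) in own inputs, and no IP list overlapped an input list. Of 9830 protein-coding genes with a cluster, 3.92% had no overlap in this direction, and among the 7 genes DYNC1H1 and DYNC2H1 did. Against Control IP, DYNC1H1, DYNC1LI2 and DCTN4 had no overlap, which held for 11.2% of the 9830 genes. Of 855 genes with at least 50 SCAF IP clusters, a number that DYNC1H1, DYNC1LI2 and DYNC2H1 reached, 6.55% and 15.6% had no overlap with own inputs and with Control IP. The genes were chosen by how many clusters they held in these same lists and by their function, so nothing is read from either share.

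The 45 regions of DYNC1H1 ranked 18th among protein-coding genes, and 40 stayed after removal of regions seen in more than 1 input or in any Control IP list and of genes dense in input regions, which ranked 3rd. The limit of input density was 1 merged input region per 10 kb. DYNC1H1 lay just inside it at 0.939, whereas DYNC1LI2 lay outside at 2.30 and lost all 13 of its regions. Before removal, at least 1 region was found in 80.2% of the 9830 genes and in all 7 genes here. After removal it was found in 52.6% of the genes and in 6 of the 7. For regions of at least 2 SCAF4 IP lists the shares were 69.6% before and 41.7% after removal, with 6 and 5 of the 7 genes. For SCAF8 IP they were 57.6% and 27.8%, with 6 and 4 of the 7.

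The DYNC1H1 regions followed its exons. In the Ensembl canonical isoform (78 exons, chr14:101964573-102056443, + strand), 45 exons were touched by a region, 58 by a cluster of any SCAF IP list, and 20 by none. Exons made up 21.8% of the gene body in the longest isoform, and 93.2% of the 191 SCAF IP clusters had an exonic midpoint (178 of 191, 95% Clopper-Pearson interval 88.6 to 96.3). So did all 12 clusters of the 9 inputs and all 5 of Control IP, so a high exonic share was not particular to SCAF IPs. Of the 45 regions, 44 touched an exon, 22 crossed a 5′ splice site, 25 crossed a 3′ splice site, and 12 crossed both kinds. The remaining region lay in intron 34, 1219 nt from its 5′ end and 1249 nt from its 3′ end, and was found in 2 SCAF4 IP lists.

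Exons 8, 10, 46, 59 and 60 were touched by clusters of all 6 SCAF IP lists. Exon 8, of 1077 nt, carried the longest region of the gene (750 nt), and no input or Control IP list had a cluster in that exon. Exon 10 was also free of input and Control IP clusters. Exon 46, by contrast, had clusters in 3 inputs and 1 Control IP list, and exon 60 in 2 Control IP lists. The exons with a region had a median length of 174 nt and those without one of 147 nt, while their median GC was alike at 50.9% and 51.5%.

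**Figure D2:**
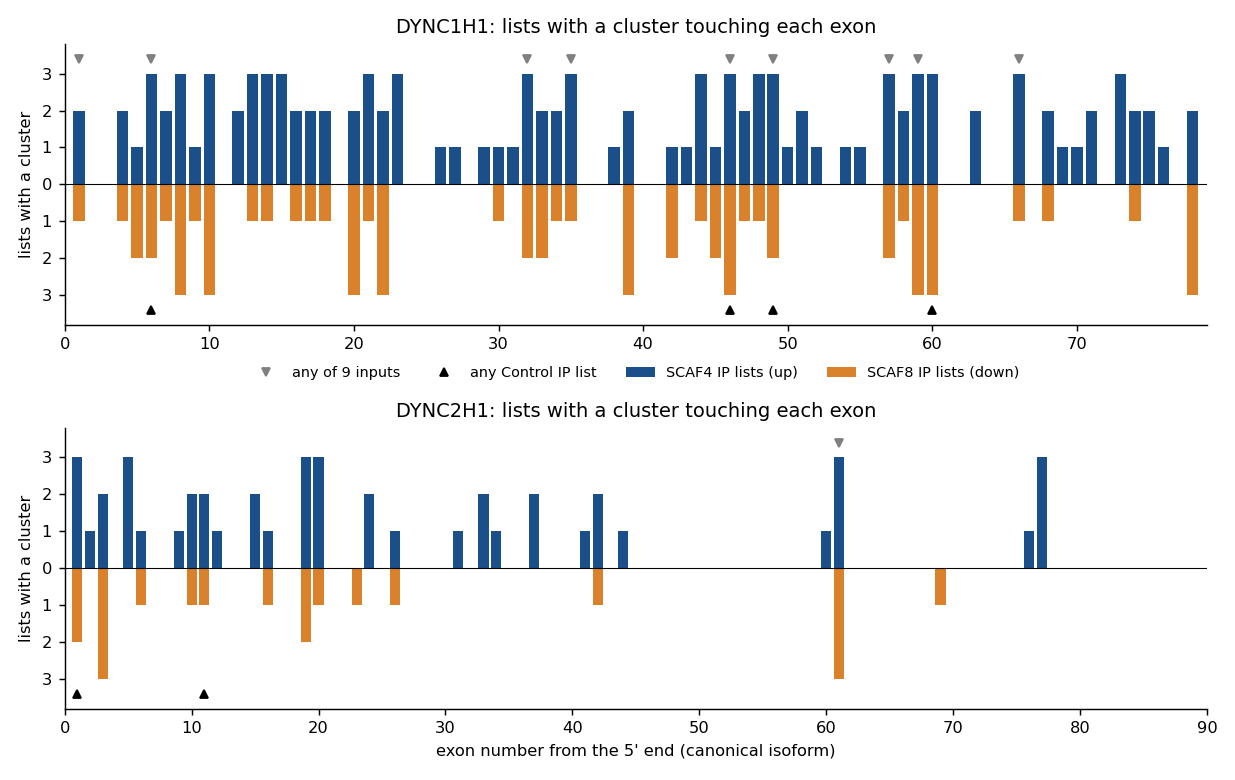
Number of SCAF4 IP lists (bars up) and SCAF8 IP lists (bars down) with a cluster touching each exon of DYNC1H1 (78 exons) and DYNC2H1 (89 exons), with grey marks for exons touched in any of 9 inputs and black marks for any Control IP list. DYNC1H1 was touched from exon 1 to exon 78, and in DYNC2H1 15 of the 17 exons with a region lay in the first 44 exons.

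DYNC2H1, whose coding sequence has 12921 nt beside the 13938 nt of DYNC1H1, was marked in another way. Its clusters numbered 9, 23 and 14 in SCAF4 IP, 8, 4 and 7 in SCAF8 IP, 2, 0 and 0 in Control IP, and 1 in all 9 inputs together. Only 3.70% of its 370454 nt body is exonic in the longest isoform, and all 65 SCAF IP clusters had an exonic midpoint. The 1 input cluster and the 2 Control IP clusters were exonic too. Regions touched 17 of its 89 exons, 15 of them among the first 44 exons and 2 among the other 45. The region in exon 61, printed above, was the only one of the gene in all 6 lists.

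Along the coding sequence, clusters were placed differently in the heavy chain genes. In DYNC1H1, 4 equal parts of the coding sequence held 45, 44, 43 and 41 SCAF IP clusters from 5′ to 3′. In DYNC2H1, they held 37, 11, 12 and 5. Per list, the mean position along the coding sequence, from 0 at its start to 1 at its end, was 0.523, 0.523 and 0.485 in SCAF4 IP and 0.442, 0.414 and 0.480 in SCAF8 IP for DYNC1H1. For DYNC2H1 it was 0.315, 0.335 and 0.298 in SCAF4 IP and 0.297, 0.273 and 0.271 in SCAF8 IP. The DYNC2H1 mean was lower in 6 of 6 lists, by 0.18 on average (exact sign-flip test over lists, two-sided p = 0.0312, the smallest that 6 lists allow). Control IP had the same order, at 0.064 (2 clusters) in DYNC2H1 and 0.605 (5 clusters) in DYNC1H1. Inputs had the opposite order, at 0.736 (1 cluster) and 0.549 (12 clusters). The comparison over SCAF IP lists was added after the data had been seen, and the lists share many of the same sites. DCTN1 held 7, 13, 13 and 5 clusters in the same 4 parts.

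**Figure D3:**
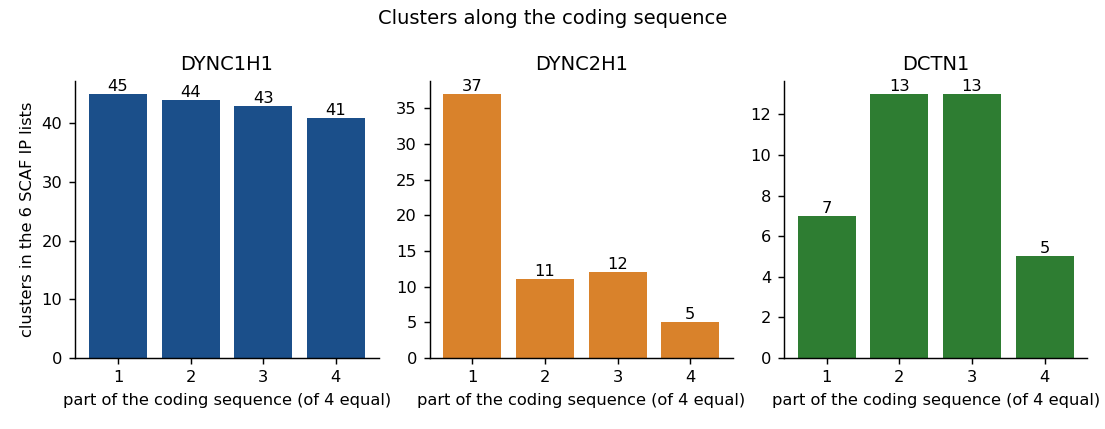
SCAF IP clusters with a midpoint in the coding sequence of the canonical isoform, summed over 6 lists, in each of 4 equal parts from the 5′ end. DYNC1H1 was even (45 to 41 per part), DYNC2H1 went from 37 to 5, and DCTN1 was highest in its middle parts (13 each).

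Measured along the whole transcript, DYNC1H1 clusters appear nearer the 5′ end, at a mean of 0.36 of the spliced canonical isoform. The coding sequence of this isoform ends at 0.70 of its length, in a last exon of 6009 nt that is mostly untranslated. Of the 178 exonic clusters, 173 were in coding sequence and 5 in untranslated sequence.

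The light intermediate chains bind cargo adaptors. DYNC1LI2 had 6, 18 and 12 clusters in SCAF4 IP and 12, 4 and 16 in SCAF8 IP. Control IP had none. Inputs held 2, 1 and 0 for SCAF4, 4, 1 and 2 for SCAF8, and 2, 0 and 0 for the parental cells, more than for any other gene here relative to the IPs. Input clusters overlapped 6 of its 13 regions, among them the last region of the gene with 4 inputs. All 8 exonic input clusters were in untranslated sequence and the other 4 in introns, whereas the SCAF IP clusters fell on 22 coding, 15 untranslated and 31 intronic positions. The last exon, of 2930 nt, was touched in 5 inputs, while exon 4, printed above, was touched in all 6 SCAF IP lists and in no input or Control IP list.

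Intron 7 of DYNC1LI2 stood out by its count. It is 2115 nt long and held 17 of the 31 intronic SCAF IP clusters, 8 from SCAF4 IP and 9 from SCAF8 IP, in all 6 lists. A single input had a cluster there. An 850 nt region ended 162 nt before its 3′ splice site and was present in all 6 lists, and another, of 311 nt, was in 3 lists. GENCODE 44 places a transcript end in this intron, 310 nt from the smaller region and 773 nt from the larger, which both lay 3′ of it. A further region of 516 nt, in 2 lists, reached from exon 7 into the intron and covered this end. Over all 7 genes, 16 of the 92 regions lay within 500 nt of an annotated transcript end inside an intron of the canonical isoform. DYNC1H1 had 7 of these, DYNC1LI2 and DCTN1 4 each, and DCTN4 1. Ends of GENCODE transcripts of every type were counted, and whether they are polyadenylation sites was not tested. The share for regions of other genes is not given here, so nothing is read from this count.

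DYNC1LI1, the paralog, had only 6 clusters, with 1, 2 and 1 in SCAF4 IP and 0, 0 and 2 in SCAF8 IP, and none in Control IP or input. Its single region was in intron 2, in the 3 SCAF4 IP lists, and 5 of its 6 clusters were intronic. DYNC1I2, the intermediate chain that contacts dynactin, had 7 SCAF IP clusters, all exonic, with 0, 2 and 0 in SCAF4 IP and 0, 2 and 3 in SCAF8 IP. Its 2 regions lay in exons 15 and 17 of 18, between residues 472 and 601.

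Of the dynactin subunits, DCTN1 had 5, 15 and 11 clusters in SCAF4 IP and 1, 2 and 5 in SCAF8 IP. Control IP held 3, 1 and 0, so that its Control IP level of 0.25 ± 0.22 per 1000 was above its SCAF8 IP level of 0.090 ± 0.044 (SD, n = 3 each), with overlapping lists. Its 10 regions all touched coding exons, and 7 stayed after removal. DCTN4, a subunit of the pointed end of dynactin, had 3, 5 and 4 clusters in SCAF4 IP and 1, 1 and 4 in SCAF8 IP. Its 4 regions touched exons 1, 3, 5 and 7 of 13, and 14 of its 18 SCAF IP clusters crossed a splice site.

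SCAF4 IP lists held more clusters of these genes per 1000 than SCAF8 IP lists did, by 0.56 on the log2 scale (1.47-fold) for the 7 genes together. All 3 SCAF4 IP lists were above all 3 SCAF8 IP lists, and the exact permutation test gave p = 0.1, the smallest that 3 against 3 lists allow, so the design could not pass 0.05. The lists also did not overlap for DYNC1H1 (log2 ratio 0.55), DYNC2H1 (0.94) and DCTN1 (1.83), each at p = 0.1 in the exact permutation test. Among the 9830 genes, 7.74% had no overlap in this direction, and 10.8% of the 855 genes with at least 50 SCAF IP clusters, whose median log2 ratio was −0.04. No overlap in the opposite direction was found in 4.42% of all and 12.2% of the better covered genes, and in none of the 7. DYNC1LI2 did not share the direction, with 0.33 ± 0.02 per 1000 in SCAF4 IP and 0.36 ± 0.13 in SCAF8 IP (SD, n = 3 each), a log2 ratio of −0.04 (exact permutation p = 1). DYNC1I2 was higher in SCAF8 IP, on 2 clusters in SCAF4 IP and 5 in SCAF8 IP. DCTN4 had a log2 ratio of 1.01 with overlapping lists (exact permutation p = 0.2). The genes were chosen by their clusters in these same lists, so these p-values and shares are descriptions. No preference for either protein is read from them.

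**Figure D4:**
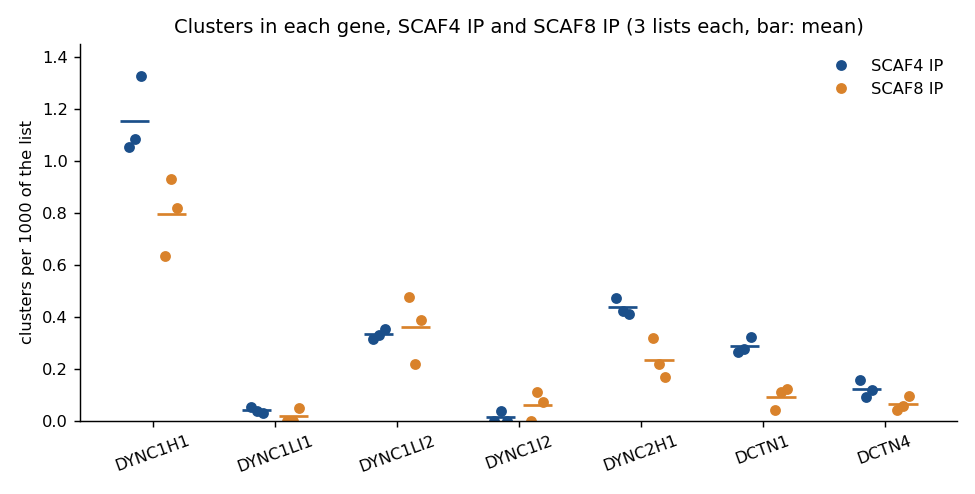
Clusters per 1000 clusters of the list for each gene, with a point for each of 3 SCAF4 IP and 3 SCAF8 IP lists and a bar at the mean. DYNC1H1 (means 1.15 and 0.795), DYNC2H1 (0.436 and 0.235) and DCTN1 (0.288 and 0.0898) were higher in SCAF4 IP without overlap, and DYNC1LI2 overlapped.

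Most SCAF8 regions coincided with SCAF4 regions, and fewer of the SCAF4 regions coincided with SCAF8 regions. With at least 2 of 3 lists needed for each protein, the genes held 80 SCAF4 and 30 SCAF8 regions. Of the SCAF8 regions, 25 overlapped a SCAF4 region by at least 1 nt (83.3%, 95% Clopper-Pearson interval 65.3 to 94.4), and 24 of the 80 SCAF4 regions overlapped a SCAF8 region (30.0%, 20.3 to 41.3). In all protein-coding genes 74.2% of 18359 SCAF8 regions overlapped a SCAF4 region, which is inside the interval of the SCAF8 share. The SCAF4 share is limited by the smaller number of SCAF8 regions, and its value over all genes is not given here. Of the 92 pooled regions, 72 had clusters of both proteins, 20 of SCAF4 only, and 0 of SCAF8 only. The same split over other genes is not given here. In DYNC1H1, 14 of 17 SCAF8 regions overlapped a SCAF4 region. After removal, 59 SCAF4, 17 SCAF8 and 69 pooled regions were left.

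The member clusters of SCAF IPs were then compared with those of their inputs by place and sequence, which the choice of genes had not used. Only 3 of the 6 inputs had at least 5 member clusters, namely SCAF4 input 1 (8 clusters), SCAF8 input 1 (6) and SCAF8 input 2 (5), so these values rest on 19 input clusters. Exonic midpoints made up 87.1% ± 4.0 in SCAF IPs (SD, n = 6) and 88.9% ± 19.2 in inputs (SD, n = 3), with exact permutation p = 0.82. Splice sites were crossed by 42.3% ± 7.4 and 17.8% ± 16.8 of clusters (exact permutation p = 0.0238, 0.060 after Benjamini-Hochberg adjustment over 5 measures). The values were 38.6, 48.4 and 50.6% in SCAF4 IP and 31.6, 46.7 and 38.0% in SCAF8 IP, against 0, 33.3 and 20% in the 3 inputs, so the groups overlapped in 1 input. In other protein-coding genes the share was also higher in SCAF IPs, 28.0% against 13.4% in own inputs.

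Mean transcript position was 0.345 ± 0.017 in SCAF IPs and 0.576 ± 0.049 in inputs, with no overlap (exact permutation p = 0.0119, the smallest possible, adjusted 0.060). Other protein-coding genes had 0.398 in SCAF IPs and 0.473 in own inputs. Neither measure passed 0.05 after adjustment. With the parental inputs added, 4 lists entered and both passed (adjusted exact permutation p = 0.0238 each). The untranslated input clusters of DYNC1LI2 entered these means. Without DYNC1LI2, the position difference was −0.14 in place of −0.23, with 1 input list left and no test. Mean GC was 48.2% and 47.1% (exact permutation p = 0.33), and clusters with CGG or CGA in 100 nt made up 71.0% and 75% (p = 0.60 in the exact permutation test), beside 66.9% and 57.6% in other protein-coding genes. The exonic share of member clusters was 86.4% ± 3.3 in SCAF4 IP and 87.8% ± 5.2 in SCAF8 IP (SD, n = 3 each, exact permutation p = 0.6). A comparison of 3 with 3 lists cannot go below p = 0.1, which it reached without DYNC1LI2 (91.2% and 97.5%, exact permutation test).

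Within the same 6 SCAF IP lists, clusters of the 7 genes were more exonic than those of other protein-coding genes. The exonic share was 87.1% against 65.4%, a difference of 21.7 percentage points, and the share crossing a splice site 42.3% against 28.0%, a difference of 14.3. In own inputs the exonic share was 88.9% in the 7 genes (3 lists) and 64.7% in other protein-coding genes. A higher exonic share in these genes was therefore not particular to SCAF IPs. Not every gene was above the others, as the exonic share was 54.4% of 68 SCAF IP clusters in DYNC1LI2 and 16.7% of 6 in DYNC1LI1. Each share over the 7 genes was higher in 6 of 6 lists (two-sided exact sign-flip test, p = 0.0312, adjusted 0.039 over 5 measures). Transcript position (0.345 against 0.398) and GC content (48.2% against 49.2%) were lower in 6 of 6 lists at the same p. By gene, mean GC was above that of other genes in DYNC1H1 (51.0%) and DCTN1 (54.9%). It was below in the rest of the 7, down to 39.8% in DYNC2H1. Mean position was above in DCTN1 (0.499) and below in the rest. Without DYNC1H1 the exonic difference was 14.3 points and the splice-site difference 8.42 points, in the same direction at the smallest exact sign-flip p (0.0312). These tests were added after the data had been seen, and the lists share sites.

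Clusters with CGG or CGA were 71.0% in the 7 genes and 66.9% in other genes, higher in 5 of 6 lists (exact sign-flip p = 0.0938). This turned without DYNC1H1, where the share was 59.2%, a difference of −7.71 percentage points from other genes (exact sign-flip p = 0.0312). DYNC1H1 had the motif in 83.2% of its 191 SCAF IP clusters and DYNC2H1, with a mean GC of 39.8% around its clusters, in 55.4% of 65. In DYNC1H1 it was also in all 12 clusters of the 9 inputs and all 5 of Control IP, so it was not more frequent in SCAF IPs.

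**Figure D5:**
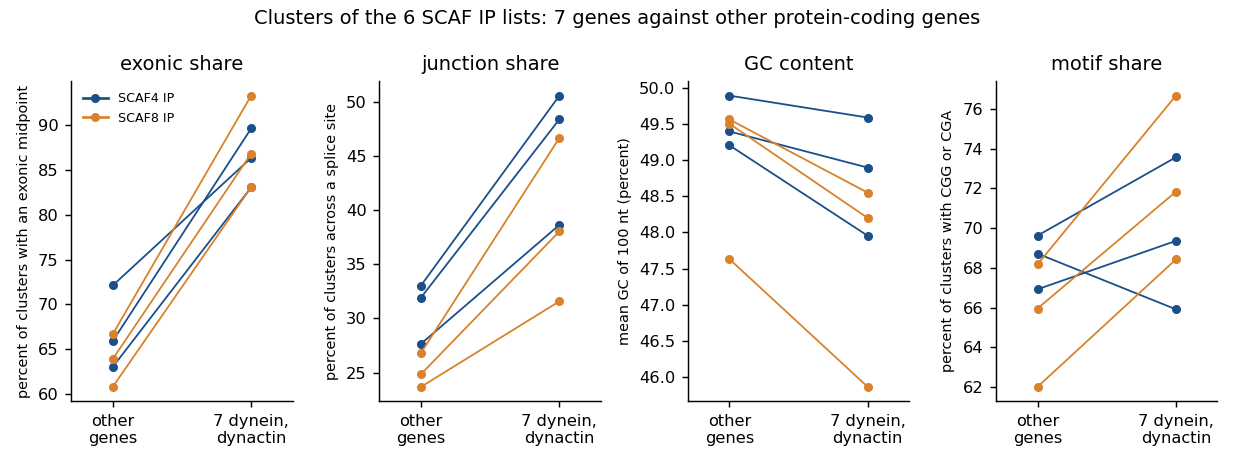
Exonic share, splice-site (junction) share, mean GC of 100 nt and share with CGG or CGA for clusters of the 7 genes and of other protein-coding genes, joined within each of 3 SCAF4 IP and 3 SCAF8 IP lists. The exonic and splice-site shares were higher in the 7 genes in 6 of 6 lists, GC was lower in 6 of 6, and the motif share was higher in 5 of 6.

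Some clusters lay where genes overlap. In DYNC1H1, 54 clusters were also within an antisense pseudogene, and in DYNC1LI2 49 and 39 were within antisense noncoding RNA genes. The lists carry strand: 87.0% of SCAF IP clusters were in protein-coding bodies on the annotated strand, compared with 6.94% with strands turned. In DCTN1, 1 cluster was shared with a readthrough gene on the same strand.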

How the data were processed

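Clusters were taken from the BED lists deposited by the authors, 1 for each replicate of IP and input. The authors trimmed reads with cutadapt and Trim Galore, aligned them to GRCh38 with Bowtie2 2.2.9, removed duplicates with Picard, combined both fractions and called clusters with PARalyzer. Replicate 1 had longer reads than replicates 2 and 3. The fifth deposited column is a score without a stated meaning, and served here as a rank among the clusters of each list. These precede the authors' filters on inputs and Control IP. The genes and lists used here were chosen with earlier results of these data known.

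Gene models were those of GENCODE 44. Shares used the isoform with the largest exon length, and exon numbers, coding positions and residues the Ensembl canonical isoform, since the longest isoforms of DYNC1H1, DCTN1 and DYNC1LI1 are not of coding type. Regions were merged at 1 nt overlap and kept with at least 2 lists. Removal dropped regions overlapping more than 1 of 9 input lists, all regions of a gene whose body and 2000 nt flanks held 1 or more merged input regions for every 10 kb, and regions overlapping a Control IP cluster. Lists with fewer than 5 member clusters gave no shares. GC and motifs were read in 100 nt around the midpoint. Groups were compared by two-sided exact permutation of lists and paired values by exact sign flips, with Benjamini-Hochberg adjustment over 5 measures. The labels do not say whether replicates came from separate cultures, so p-values cover the spread between these lists. Intervals cover counting error only, at 95%.

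Input and IP of a number come from the same extract by the protocol. Over 5115 genes, their deviations from the group means correlated at 0.0241 to 0.373 (6 pairs), against −0.281 to 0.159 for 12 pairs of different numbers. Alternatives changed the inputs, isoform, score limit, number of lists, overlap, removal steps and genes, and left out each replicate. Named genes were the 7 genes, up to 10 others of the wider dynein and regulator lists with most regions, and 5 genes most like DYNC1H1. The sequence of the DYNC1H1 region is not reported here. Scripts were tested on simulated clusters. Sequences were read with pysam 0.24.0, tests used scipy 1.17.1 and numpy 2.4.6 under Python 3.11.15, tables pandas 2.3.3 and plots matplotlib 3.10.9.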

Additional observations from a re-analysis of the deposited data

How the results depend on the processing

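Of 158 alternative values, 110 were counted as unchanged. For tested measures this meant the same direction and the same side of the adjusted threshold, and for counts and levels a similar size. Alternatives with too few lists for a test counted as not passing, like the main comparisons with inputs, and needed only the same direction. Without replicate 1, for example, the motif difference was −27.1 beside −4.04 in the main analysis, untested, and was counted as unchanged. With all 9 inputs, the splice-site difference between SCAF IPs and inputs (24.8 percentage points) and the position difference (−0.21) passed the adjusted threshold, and the motif difference turned to 6.37. With lists of at least 1 member cluster, position passed (−0.25), while the exonic difference turned to 18.7 and GC to −0.46. Against Control IP, 1 list gave values, with position at 0.018 and GC at −0.16, and the log2 ratio of clusters per 1000 was 1.74. That ratio was 1.76 for clusters at or above the median score and 2.89 without DYNC1LI2, an alternative chosen after seeing the data, under which the motif difference was 7.70 and the position difference −0.14. The motif difference was 0.15 in clusters as deposited. The exonic difference of SCAF4 and SCAF8 IP was 3.35 without DYNC1H1, and the motif difference from other genes was then −7.71.

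Needing 3 lists left 24 SCAF4 and 8 SCAF8 regions, with 57.1% of SCAF8 regions shared. Clusters at or above the median score left 19 SCAF4, 4 SCAF8 and 27 pooled regions, 14.3% of 7 SCAF8 regions shared, and 16 DYNC1H1 exons.

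Leaving out replicates gave log2 ratios of 1.94 to 2.87 (IP against input), exonic differences of −12.7 to 3.16, motif differences of −27.1 to 7.43, and exonic differences of SCAF4 and SCAF8 IP of −5.37 to 3.04, which turned without replicate 2. It gave 24 to 71 SCAF4 regions (24 without replicate 2, 28 without replicate 3), 8 to 17 SCAF8 regions (8 without replicate 3), 45 to 83 pooled regions (45 without replicate 3), and 56.5 to 80.0% of SCAF8 regions shared (56.5% without replicate 2). Differences from other genes were 20.8 to 23.2 (exonic), 12.4 to 16.8 (splice site), −0.057 to −0.048 (position) and −1.20 to −0.78 (GC), and that of DYNC2H1 and DYNC1H1 −0.19 to −0.17. With 4 lists the sign-flip test cannot go below an exact p of 0.125, so none of these passed.

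Within pairs of IP and input of the same number (replicate block), the log2 ratio was 2.04 over 5 pairs and the position difference −0.24 over 3 pairs, whose smallest exact p is 0.25. The block changed no call. Causes of these changes were not tested. Depth could not be assessed because the lists hold no reads.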

Other observations

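Of 21 other genes of dynein and dynactin subunits, 15 had a cluster in any list, 13 had a region of at least 2 SCAF IP lists, and 7 still had 1 after the removal steps, with 60 regions in all before removal. The most regions were in ACTR1A, the actin-related protein of the dynactin filament (11, of which 7 stayed), DYNLL2, a light chain (8, of which 0 stayed), CAPZA1 (8, 0 stayed) and CAPZB (6, 4 stayed), which cap that filament. Both DYNLL2 (2.48 input regions per 10 kb) and CAPZA1 (1.79) exceeded the limit of input density. The other 6 of the 21 genes had no cluster in any of the 18 lists.

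Of 20 regulators and cargo adaptors, 18 had a cluster, 16 a region and 13 a region after removal, with 86 regions before it. PAFAH1B1, which encodes the dynein regulator LIS1, had 14 regions and none after removal, at 1.87 input regions per 10 kb. MAPK8IP3 had 13 and 6, HTT 10 and 9, and NIN and SPAG9 8 each, all of which stayed. MAPK8IP3 held 226 clusters in the 18 lists but only 102 in SCAF IPs, whereas DYNC1H1 held 208 and 191. At least 1 region before and after removal was found in 80.2% and 52.6% of protein-coding genes with a cluster.

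Over the 18 lists, the genes whose levels (log2 of clusters per 10000 plus 0.5) followed DYNC1H1 most closely among 2410 candidates with at least 30 clusters were USP11 (Pearson r = 0.885), AP2A2 (0.866), SNX19 (0.862), PUF60 (0.845) and BOP1 (0.840). The median over the candidates was 0.263. Of the other dynein and dynactin genes, DYNC2H1 came closest at 0.801. The points share lists and list sizes, so these values are descriptions.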
